A study of Homo sapiens with 12 samples.

Results

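The 9 genes described here are known from the undifferentiated state of human embryonic stem cells: POU5F1, NANOG, SOX2, SALL4, DPPA4, L1TD1, DNMT3B, TDGF1 and PODXL. They were found by matching each symbol to an Ensembl ID of the deposited count table. All 9 had a row among its 36601 genes, and 8 of the 9 passed the filter on low counts, NANOG being the exception. Bulk RNA came from wild-type H9, a widely used line of human embryonic stem cells, during differentiation towards γδ T cells. The labels name cells of day 10 as haematopoietic progenitors, those of days 15 and 20 as T progenitors and those of day 25 as mature γδ T cells, with 3 libraries a day and 1 batch label. H9 was grown on mouse embryonic fibroblast feeders before day 0. From day 0 all groups shared CHIR99021 (a Wnt pathway activator), BMP4, Activin A and a Rock inhibitor, then VEGF and bFGF, and from day 6 also Flt3L, IL-7, SCF and SB431542, a blocker of activin and Nodal receptors. On day 10 the medium was changed to one with serum, the Notch ligand DLL4, Flt3L, IL-7 and SCF, in which the cells of days 15, 20 and 25 were kept. The labels state no sort and name 1 cell line, and undifferentiated cells were not analysed here, so no level below is set against a starting level.

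In pluripotent cells the transcription factors POU5F1 (also called OCT4), SOX2 and NANOG bind many of the same sites and keep each other's genes active. SALL4 and DPPA4 are nuclear factors of the same state, L1TD1 is an RNA-binding protein, and DNMT3B writes new DNA methylation. TDGF1 (Cripto) is a co-receptor for the ligand Nodal, whose signalling human embryonic stem cells need, and PODXL is a heavily glycosylated surface protein that carries stem cell antigens. Several of the 9 are not exclusive to that state: SALL4, DNMT3B and PODXL are also made by blood progenitors, and PODXL by podocytes, endothelium and other polarised cells.

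The sequence of a copied gene bears on how the counts can be read, so it is shown first. TDGF1 has a retrocopy on chromosome X, TDGF1P3, that is 98.8% identical over the 564 coding bases compared, with 7 differing bases. A stretch of 60 coding bases from each, with the differing letters in capitals, shows how little sets the copies apart (GENCODE release 29 transcripts, plus strand of GRCh38).
TDGF1: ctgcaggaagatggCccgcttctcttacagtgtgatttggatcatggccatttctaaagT
TDGF1P3: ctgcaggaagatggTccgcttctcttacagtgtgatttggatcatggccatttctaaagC
The differences shown are C20T and T65C, TDGF1's base first, counted from the A of the start codon. Of all 50-base words in the transcripts of TDGF1, 34.0% also occurred in TDGF1P3. POU5F1 shared 37.4% of its 50-base words with other genes, among them POU5F1B with 16.4%, and NANOG shared 16.8% with other genes, among them NANOGP8 with 12.3%. The share was 5.76% for L1TD1, 2.83% for DPPA4, 2.03% for SOX2 and 0.636% for SALL4, while DNMT3B and PODXL shared none. POU5F1 also overlapped TCF19 on the other strand over 248 exonic bases, and TDGF1 overlapped LRRC2 over 110. Whether counting used strand is not given in the sources used here, so counts of POU5F1, NANOG and TDGF1 are uncertain in what they assign to each copy or antisense partner.

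SOX2 and DPPA4 moved in opposite ways over the 4 days, as described below, and their promoters are printed for that reason (RefSeq, GRCh38.p14, 250 bases before to 50 after the start). Capitals mark matches to the motifs searched. SOX2 is at chr3:181711675-181711974 on the plus strand and DPPA4 at chr3:109337497-109337796 on the minus strand.
SOX2: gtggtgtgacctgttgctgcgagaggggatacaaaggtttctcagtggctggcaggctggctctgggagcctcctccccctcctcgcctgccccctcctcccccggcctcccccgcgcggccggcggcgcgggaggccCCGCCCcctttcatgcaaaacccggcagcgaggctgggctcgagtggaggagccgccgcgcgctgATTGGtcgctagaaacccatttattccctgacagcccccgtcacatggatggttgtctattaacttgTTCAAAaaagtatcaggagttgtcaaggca
DPPA4: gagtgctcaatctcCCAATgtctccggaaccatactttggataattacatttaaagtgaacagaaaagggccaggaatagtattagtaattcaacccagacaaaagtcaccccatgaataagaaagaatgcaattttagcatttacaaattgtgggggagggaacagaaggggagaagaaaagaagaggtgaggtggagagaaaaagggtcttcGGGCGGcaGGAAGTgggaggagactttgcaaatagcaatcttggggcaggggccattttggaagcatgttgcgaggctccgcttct
SOX2's window held the GC box, whose letters are GGGCGG, the CCAAT box and the CHR element, TTTGAA, all on the strand opposite to the gene. DPPA4's held a CCAAT box, a GC box and an ETS site (GGAAGT), all on the strand of the gene. Among 35116 RefSeq promoters of this length, searched on both strands, a GC box was in 45%, a CCAAT box in 34.6%, a CHR element in 15.2% and an ETS site in 22.8%. The octamer ATGCAAAT, which POU factors bind, was in 1.77% of all promoters and in 0 of the 5 member promoters in the table (NANOG, SOX2, DPPA4, L1TD1 and DNMT3B). The SOX core ACAATG was in 10.8% of all promoters and in that of NANOG. The E2F site GGCGGGAA, in 3.16% of all promoters, was in none of the 5, and the box TATAAA, in 11.5%, was in that of NANOG. No match in the printed windows overlapped another. The windows also differed in composition, with 20 CpG in that of SOX2 and 5 in that of DPPA4, against a median of 14 over all promoters.

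Libraries held between 27026196 and 39811230 counts. Levels are CPM, counts relative to a library size corrected with TMM factors from edgeR, and folds with their standard errors (SE) come from edgeR's quasi-likelihood test, with Benjamini-Hochberg adjusted p over 20183 genes. A change was called at an adjusted p under 0.05. The labels do not say that the 3 libraries of a day came from separate cultures. Each p sets a difference between days against the spread among these libraries, estimated in part across genes. That spread may be technical and may leave out variation between cultures. Of 7 tested T cell genes, 4 were higher and 1 lower on day 25 against day 10, and the summed level of the 10 on the list ran from 16.8 to 19.0 CPM in the libraries of day 25, against 5.08 to 5.32 CPM on day 10. The γδ receptor genes TRGC1 and TRGC2 averaged 10.0 and 4.90 CPM on day 25, against 1.69 and 0.717 CPM on day 10, and TRDC 0.379 CPM, against 0.109. On day 25 against day 20, however, 0 of the 7 tested T cell genes were higher and 5 were lower. TRGC1 (log2 -1.30), TRGC2 (log2 -1.50) and TRDC (log2 -1.87) were among those lower. The signalling chain CD247 had 8 counts over the libraries of day 25, against 6 on day 10. Of the CD3 genes that define T cells, named after their values were seen, CD3D and CD3G had 0 counts on day 25, and CD3E had 17 over its 3 libraries, against 0 on day 10. On day 20 all 10 genes of the T cell list had counts, and CD3E was higher than on day 15 (log2 6.37, SE 1.65). CD3D and CD3G did not pass the filter on low counts. The haematopoietic genes PTPRC (CD45) and SPI1 averaged 431.8 and 505.4 CPM on day 25. A floor of 3 counts, the limit that a count of 0 allows, is 0.0723 to 0.145 CPM in 1 library, and it covers counting error only. The floor takes each count as a separate fragment, which may not hold here, and it would be higher if it does not.

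Across the 4 days the 9 genes did not move as 1 group. All 8 that were tested differed among the days, which 90.5% of all tested genes did as well. DNMT3B fell at each step, DPPA4 and SALL4 dipped on day 15 and were partly back on day 20, POU5F1 was highest on day 10, and NANOG stayed within 4 counts in every library. SOX2 had 2 high days, 15 and 25, TDGF1 had 1, day 15, and L1TD1 and PODXL were high on days 20 and 25. POU5F1 reached 10 counts in all 3 libraries on day 10 alone, and TDGF1 on days 15 and 20, L1TD1 on days 20 and 25 and SOX2 on days 15, 20 and 25. A gene that passes the filter through its high day had to differ, so the count of members that differ is a description. The same limit holds for calls that set such a high day against another, and for the counts of members called in each comparison.

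**Figure D1:**
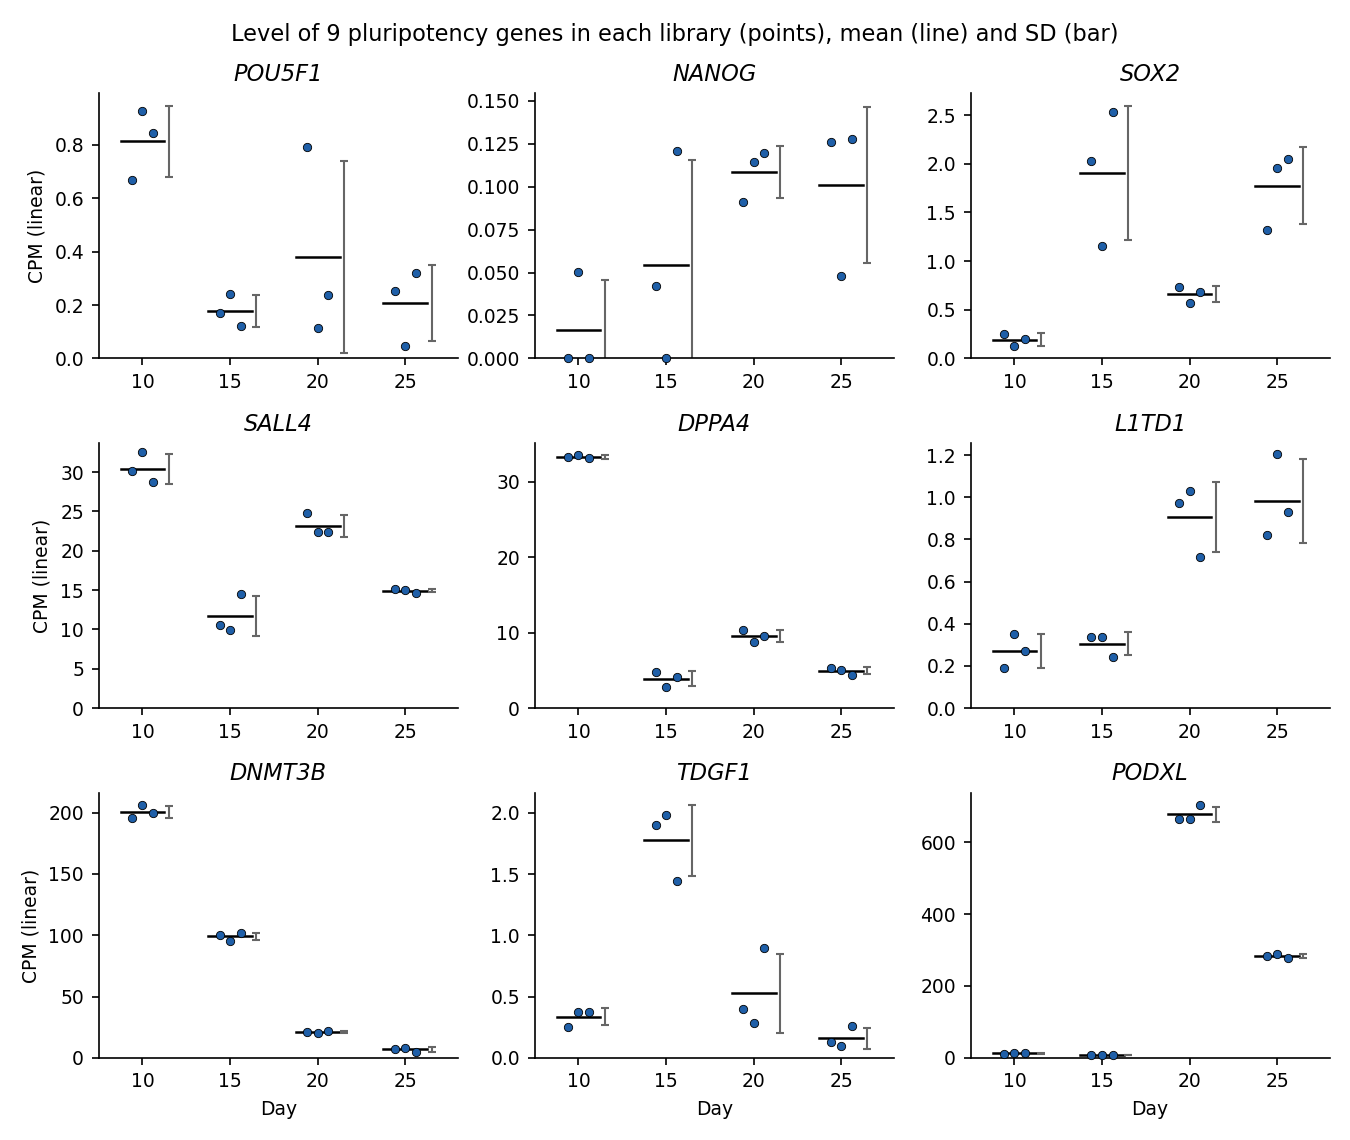
Level of each of the 9 genes in CPM on a linear axis that starts at 0 and differs between panels, by day, with 1 point per library, a line at the mean and a bar for the SD (n = 3). DNMT3B descends to 6.81 CPM on day 25, PODXL peaks at 678 CPM on day 20, and POU5F1, NANOG and L1TD1 stay near or below 1 CPM throughout.

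Day 15 against day 10 had 2 of 8 members higher and 5 lower, beside 42.4% of all tested genes higher and 30.8% lower. Day 20 against day 15 had 4 higher and 3 lower, beside 40.6% and 36%. Day 25 against day 20 had 1 higher and 5 lower, beside 24.5% and 25.1%. Between the ends of the series, day 25 against day 10, 3 members were higher and 4 lower, beside 38.6% and 36%. The median log2 fold change of the members in these comparisons was -0.83, 1.04, -0.93 and -1.06, and that of all tested genes 0.20, 0.10, -0.03 and 0.02. Successive comparisons share the libraries of a day, so a low day 15 enters both the first and the second. The split of all calls depended on the scaling: with library size alone, 39.2% of calls were higher on day 15 against day 10 instead of 57.9%, 72.1% instead of 53% on day 20 against day 15, and 31.4% instead of 49.4% on day 25 against day 20. That scaling moved the median of all genes by -0.52, 0.62 and -0.16 on the log2 scale, and by -0.07 between days 25 and 10. No member call changed direction under it.

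**Figure D2:**
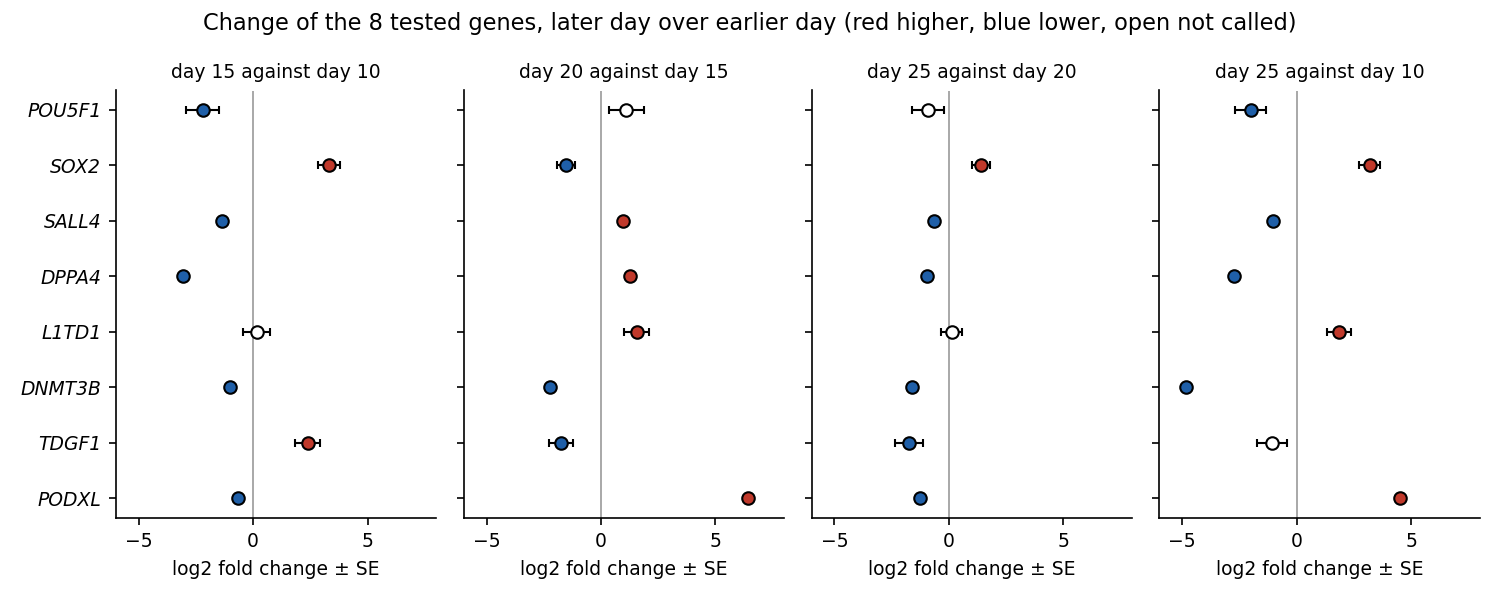
Log2 fold change of the 8 tested genes, later day over earlier day, with SE as bars, for 4 comparisons. Filled points passed an adjusted p of 0.05 (red higher, blue lower) and open points did not; the step of PODXL on day 20, 6.42, is the largest among the members.

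POU5F1 (ENSG00000204531, chr6:31164337-31180731, minus strand, GRCh38) had 21, 37 and 25 counts in the libraries of day 10 and 4, 5 and 3 on day 15. It had 26, 4 and 8 on day 20 and 8, 2 and 10 on day 25. The 3 libraries of day 10 stood above all of days 15 and 25, and on day 20 the first library was as high as those of day 10 while the other 2 were low. In CPM this was 0.813 ± 0.134 on day 10, 0.177 ± 0.061 on day 15, 0.382 ± 0.36 on day 20 and 0.207 ± 0.142 on day 25 (SD, n = 3). Day 15 was 4.58-fold lower than day 10 (log2 -2.20, SE 0.73, adjusted p = 0.00673, edgeR), and day 25 was 4.02-fold lower than day 10 (log2 -2.01, SE 0.68, adjusted p = 0.00748). POU5F1 passed the filter on low counts through day 10, the day used in both comparisons, so these p-values describe the difference and lend it no support. The day 25 call was lost without the second library of day 25, where the adjusted p was 0.0687. In the order of levels, day 10, 20, 25 and 15, no neighbours differed beyond their spread in edgeR's test, with adjusted p of 0.119, 0.301 and 0.841. In limma-voom day 20 was lower than day 10 (log2 -1.50, adjusted p = 0.0166). Without the first library of day 20, edgeR also called day 20 lower than day 10 (log2 -2.18, adjusted p = 0.0145). In bulk RNA, fewer cells with a transcript and less of it per cell cannot be told apart. Its related copy POU5F1B had between 0 and 6 counts in each of the 12 libraries.

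NANOG (ENSG00000111704, chr12:7787794-7799141, plus strand) had 0, 2 and 0 counts on day 10, 1, 0 and 3 on day 15, 3, 4 and 4 on day 20, and 4, 2 and 4 on day 25. All 12 libraries thus lay at 4 counts or fewer, at or about the floor of 1 library, and a trend was not detectable at this depth. Summed over the 3 libraries of a day, the counts were 2, 4, 11 and 10 in order of days. All libraries of day 20 were above those of day 10. How many of these counts belong to copies is not known. Tested without the filter, no pair of days was called (adjusted p from 0.24 to 1, edgeR), and the test among the 4 days gave an adjusted p of 0.519. NANOGP8, a retrocopy of NANOG, had up to 4 counts in a library, and NANOGNB had 0 in all 12.

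SOX2 (ENSG00000181449, chr3:181711924-181714436, plus strand) is the partner of POU5F1 in pluripotent cells and a factor of neural progenitors. It had 8, 5 and 6 counts on day 10, 48, 24 and 63 on day 15, 24, 20 and 23 on day 20, and 42, 81 and 64 on day 25. The libraries of day 10 were the lowest, those of days 15 and 25 were the highest and overlapped each other, and day 20 lay between. The CPM averaged 0.194 ± 0.0647, 1.91 ± 0.694, 0.664 ± 0.081 and 1.78 ± 0.394 in that order of days (SD, n = 3). SOX2 rose 9.89-fold on day 15 against day 10 (log2 3.31, SE 0.47, adjusted p = 2.95e-08, edgeR) and fell by 1.53 (SE 0.40) on the log2 scale on day 20 against day 15 (adjusted p = 0.000674). It rose 2.67-fold on day 25 against day 20 (SE 0.39, adjusted p = 0.00222). Days 25 and 15 did not differ beyond their spread (log2 -0.11, SE 0.37). SOX2 lies inside SOX2-OT without sharing exonic bases, and SOX2-OT had between 0 and 15 counts in a library.

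The related factors did not share 1 pattern. Of 12 tested POU and SOX genes other than the members, 5 rose and 4 fell on day 15 against day 10, and 3 rose and 7 fell on day 20 against day 15 (5 rose and 5 fell with library size alone). At day 25 against day 20, 5 rose and 2 fell. POU3F2, a neural factor, averaged 0.110, 6.71, 0.297 and 1.86 CPM over days 10, 15, 20 and 25, and like SOX2 it passed the test at all 3 steps, up, down and up. SOX11, named after its values were seen, did so too, with 33.4, 351, 25.8 and 33.6 CPM. SOX4, also named after its values were seen, peaked on day 15 with 47.1, 331, 84.1 and 83.8 CPM. POU2F2, a factor of B cells, averaged 9.37, 24.0, 53.6 and 47.9 CPM, and SOX18, a factor of endothelium, 13.5, 3.13, 0.971 and 1.37 CPM. Neural genes were measured beside SOX2: of 6 tested, 4 rose and 1 fell on day 15 against day 10, 4 rose and 2 fell on day 20 against day 15, and 5 rose and 1 fell on day 25 against day 20. MAP2, which encodes a dendritic microtubule protein, averaged 0.925, 11.1, 5.45 and 10.5 CPM and STMN2, a neuronal tubulin regulator, 0.110, 0.585, 53.3 and 27.2 CPM. Their summed level over 8 genes ran from 66.3 to 67.6 CPM in the libraries of day 10 and from 67.6 to 71.9 on day 15, then from 118 to 120 on day 20 and from 186 to 192 on day 25. Most of this sum on days 10 and 15 was NES (nestin), named after its values were seen, with 60.8, 43.6, 34.4 and 83.2 CPM over the 4 days. NES fell on day 20 against day 15 (log2 -0.34) but rose with library size alone (log2 0.28), where 5 neural genes rose and 1 fell. The part of the neural genes in the SOX2 values was not tested.

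SALL4 (ENSG00000101115, chr20:51782331-51802520, minus strand), a zinc-finger repressor of embryonic stem cells and of fetal blood progenitors, was present on every day. It measured 30.1, 32.5 and 28.7 CPM on day 10, 10.6, 9.96 and 14.6 on day 15, 24.8, 22.4 and 22.4 on day 20, and 15.1, 15.0 and 14.7 on day 25. No 2 days overlapped, and the order was day 10, 20, 25 and 15, each neighbour passing the test. SALL4 fell 2.59-fold on day 15 against day 10 (log2 -1.37, SE 0.10, adjusted p = 1.06e-15, edgeR). It rose 1.97-fold on day 20 against day 15 (SE 0.10, adjusted p = 3.47e-11) and fell 1.55-fold on day 25 against day 20 (SE 0.10, adjusted p = 5.57e-07). Per kilobase of exon the day 10 level was 5.27 CPM, above 66.8% of the 19814 tested genes with a known length, and that of day 25 was 2.59 CPM, above 51.5%.

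SALL4 recruits the NuRD repressor complex, and its SALL relatives and NuRD subunits were measured beside it. All 11 fell on day 15 against day 10, all 11 were lower on day 25 against day 10, and on day 20 against day 15, 3 rose and 6 fell. With library size alone the day 20 counts were 8 higher and 2 lower, so that step has no fixed direction for the list. SALL3 was 14.2, 1.39, 1.31 and 0.525 CPM over the 4 days and SALL2 66.9, 51.4, 15.3 and 10.5 CPM. Among the subunits, MTA2 averaged 261, 171, 97.3 and 84.2 CPM, and the histone chaperone RBBP4 220, 150, 129 and 98.6 CPM.

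DPPA4 (ENSG00000121570, chr3:109326141-109337572, minus strand), a chromatin-bound factor of pluripotent and early embryonic cells, was highest on day 10 and partly back on day 20, like SALL4. It measured 33.3, 33.6 and 33.1 CPM on day 10, 4.73, 2.80 and 4.14 on day 15, 10.4, 8.80 and 9.53 on day 20, and 5.36, 5.02 and 4.45 on day 25. Day 10 stood far above the rest, day 20 next, and days 15 and 25 overlapped. DPPA4 fell 8.48-fold on day 15 against day 10 (log2 -3.08, SE 0.13, adjusted p = 3.93e-24, edgeR), rose 2.44-fold on day 20 against day 15 (SE 0.14, adjusted p = 6.56e-11) and fell 1.93-fold on day 25 against day 20 (SE 0.13, adjusted p = 3.17e-08). Day 25 remained 6.73-fold lower than day 10 (log2 -2.75, SE 0.12). Day 25 was 1.26-fold higher than day 15 (log2 0.33, SE 0.15, adjusted p = 0.0411), a call lost in several other fits, among them that without the second library of day 15 (log2 0.16, adjusted p = 0.33), without the first of day 25 (adjusted p = 0.113) and without the second of day 25 (adjusted p = 0.0716).

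Over the 12 libraries the log2 CPM of SALL4 and DPPA4 correlated at a Pearson r of 0.93, and SOX2 with DPPA4 at -0.93 and with SALL4 at -0.87. These values describe points that share libraries and days, with 3 libraries to each of 4 days. Proliferation genes moved with SALL4 and DPPA4: the summed level of 12 genes ran from 3756 to 3876 CPM on day 10, 750 to 771 on day 15, 1341 to 1368 on day 20 and 827 to 836 on day 25. All 12 fell on day 15 against day 10, 11 rose and 1 fell on day 20, and all 12 fell on day 25 against day 20. Cyclin A2 (CCNA2) averaged 211, 29.8, 61.5 and 33.2 CPM, and RRM2, a subunit of ribonucleotide reductase, 506, 66.3, 118 and 79.9 CPM. The 1 gene that fell on day 20 was BUB1, a spindle checkpoint kinase, with 54.1 CPM against 88.8 on day 15. With library size alone 11 rose and 0 fell at that step, so the fall of BUB1 depended on the scaling. The part of cell division in the levels of SALL4 and DPPA4 was not tested.

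L1TD1 (ENSG00000240563, chr1:62194831-62212328, plus strand), an RNA-binding protein derived from a LINE-1 element, was low on all days and higher late. It had 6, 14 and 8 counts on day 10, 8, 7 and 6 on day 15, 32, 36 and 24 on day 20, and 26, 50 and 29 on day 25. Every library of days 20 and 25 stood above every library of days 10 and 15, and within each of those pairs of days the libraries overlapped. L1TD1 rose 2.96-fold on day 20 against day 15 (log2 1.56, SE 0.54, adjusted p = 0.0088, edgeR) and was 3.57-fold higher on day 25 than on day 10 (log2 1.84, SE 0.52, adjusted p = 0.00161). Days 15 and 10 (log2 0.15, SE 0.59) and days 25 and 20 (log2 0.12, SE 0.47) did not pass the test, and these small differences changed sign under other settings. The highest level, on day 25, was 0.985 CPM, or 0.256 CPM per kilobase, above 17.4% of tested genes.

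DNMT3B (ENSG00000088305, chr20:32762385-32809356, plus strand) had the largest fall of the 8 tested members over the series. It measured 195.5, 206 and 200.1 CPM on day 10, 99.8, 95.5 and 102 on day 15, 21.5, 20.6 and 21.5 on day 20, and 7.22, 8.27 and 4.93 on day 25. The days did not overlap and each was below the one before. DNMT3B fell 2.03-fold on day 15 against day 10 (log2 -1.02, SE 0.06, adjusted p = 2.55e-15, edgeR), 4.68-fold on day 20 against day 15 (log2 -2.23, SE 0.07, adjusted p = 1.23e-22) and 3.06-fold on day 25 against day 20 (log2 -1.61, SE 0.09, adjusted p = 1.56e-15). Day 25 was 29.01-fold lower than day 10 (log2 -4.86, SE 0.08, adjusted p = 2.27e-30). Per kilobase, the day 10 level of 43.3 CPM was above 96.0% of tested genes, and the day 25 level of 1.47 CPM above 42.3%.

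Most genes of a list on DNA methylation fell with DNMT3B on day 15 and again on day 25, and most rose on day 20, when DNMT3B fell. The list holds writers of methylation, their partners and the TET enzymes, which act in its removal. Of 9 tested, 7 fell and 2 rose on day 15 against day 10, and 6 rose and 1 fell on day 20 against day 15. The 2 that rose were TET2 (log2 1.70) and TET3 (log2 0.23, or -0.30 with library size alone). TET2 was also the 1 that fell on day 20 (log2 -1.14). TET1 moved with most of the list, with log2 -2.02 on day 15 and 2.06 on day 20. These TET genes were named after their values were seen. At day 25 against day 20, 6 fell and 1 rose. With library size alone, 8 rose and 1 fell on day 20 against day 15, and 0 rose and 8 fell on day 25 against day 20. The maintenance methyltransferase DNMT1 averaged 443 ± 2.35, 150 ± 8.78, 212 ± 2.69 and 182 ± 5.49 CPM over days 10, 15, 20 and 25 (SD, n = 3). UHRF1, which guides DNMT1 to newly copied DNA, averaged 104, 35.6, 77.4 and 43.8 CPM, and HELLS, a chromatin remodeller needed for methylation, 78.5, 13.1, 36.7 and 21.0 CPM. CDCA7, which works with HELLS, averaged 75.0, 19.0, 44.0 and 20.0 CPM. DNMT3A, the other writer of new methylation and named here after its values were seen, stayed between 73.6 and 102 CPM on all days. DNMT3A passed the test on day 15 (log2 -0.47, SE 0.05) and, as the 1 that rose, on day 25 against day 20 (log2 0.22, SE 0.05). It did not pass on day 20 against day 15 (log2 0.08, adjusted p = 0.136, edgeR). Both of these later results depended on the scaling. With library size alone, DNMT3A was not called higher on day 25 against day 20, and all 9 genes were called on day 20 against day 15.

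TDGF1 (ENSG00000241186, chr3:46574534-46582463, plus strand) peaked on day 15. Day 10 had 8, 15 and 11 counts, day 15 had 45, 41 and 36, day 20 had 13, 10 and 30, and day 25 had 4, 4 and 8. The 3 libraries of day 15 were above the other 9, and on day 20 the third library was more than 2 times as high as the other 2. The CPM averaged 0.334 ± 0.0692, 1.78 ± 0.288, 0.526 ± 0.325 and 0.160 ± 0.0849 in order of days (SD, n = 3). TDGF1 rose 5.24-fold on day 15 against day 10 (log2 2.39, SE 0.55, adjusted p = 0.00016, edgeR) and fell 3.36-fold on day 20 against day 15 (log2 -1.75, SE 0.52, adjusted p = 0.00282). The fall of 3.31-fold on day 25 against day 20 (log2 -1.73, SE 0.62, adjusted p = 0.0182) was lost without the third library of day 20 (log2 -1.10, adjusted p = 0.207), without the first of day 25 (adjusted p = 0.0555) and without the second of day 25 (adjusted p = 0.0826). Days 25 and 10 did not pass the test (log2 -1.08, SE 0.64, adjusted p = 0.124), nor did days 20 and 10 (log2 0.64, SE 0.57, adjusted p = 0.314). TDGF1P3, whose sequence is set beside that of TDGF1 above, has no value here.

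Genes of the Nodal and activin pathway, in which TDGF1 acts as co-receptor, were also high on day 15. Of 14 tested, 11 rose and the other 3 did not pass the test on day 15 against day 10, and 2 rose and 10 fell on day 20 against day 15 (10 higher and 2 lower, and 3 higher and 9 lower, with library size alone). The ligand NODAL, named after its values were seen, averaged 0.377 ± 0.165 CPM on day 10, 3.92 ± 0.162 on day 15, 0.563 ± 0.0869 on day 20 and 0.733 ± 0.193 on day 25 (SD, n = 3). NODAL rose 10.2-fold on day 15 against day 10 (log2 3.35, SE 0.40, adjusted p = 5.21e-10, edgeR). LEFTY1 and LEFTY2 encode secreted inhibitors of Nodal that the pathway itself induces. LEFTY1 averaged 12.1, 114, 1.83 and 0.336 CPM, a rise of 9.52-fold on day 15 (adjusted p = 3.29e-13), and LEFTY2 averaged 0.545, 2.34, 0.129 and 0.021 CPM. The receptor ACVR2A, also named after its values were seen, averaged 8.22, 59.2, 14.2 and 11.2 CPM. INHBA, which encodes the subunit of activin A, did not return after day 15: it averaged 2.12, 7.28, 13.0 and 12.7 CPM. FST, the activin antagonist follistatin, averaged 1.06, 4.96, 6.67 and 5.33 CPM. The labels list SB431542 in the medium from day 6 and not in that from day 10, and its part in these levels was not tested.

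**Figure D3:**
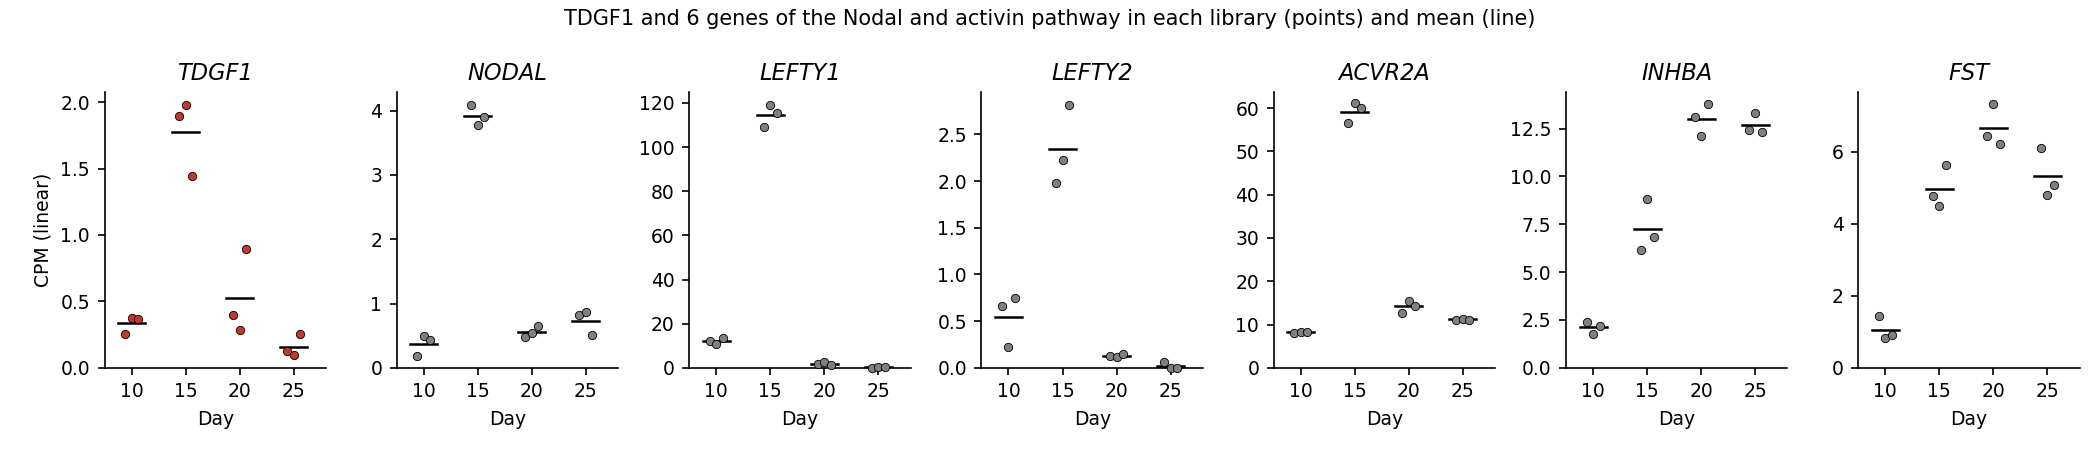
CPM of TDGF1 (red) and of 6 genes of the Nodal and activin pathway (grey) in each library by day, on linear axes that start at 0 and differ between panels, with a line at the mean of 3 libraries. LEFTY1, LEFTY2, INHBA and FST were taken by the size of their change between days 25 and 10, NODAL and ACVR2A after their values were seen; TDGF1, NODAL, LEFTY1, LEFTY2 and ACVR2A have their highest mean on day 15 (1.78 CPM for TDGF1), INHBA and FST on day 20 (13.0 and 6.67 CPM).

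PODXL (ENSG00000128567, chr7:131500262-131558217, minus strand) encodes podocalyxin, a sialomucin of the CD34 family. It measured 11.7, 13.0 and 12.5 CPM on day 10, 7.64, 8.32 and 7.88 on day 15, 665.4, 665.6 and 702 on day 20, and 282, 289 and 278 on day 25. The 6 late libraries stood far above the 6 early ones, and no 2 days overlapped. PODXL fell 1.57-fold on day 15 against day 10 (log2 -0.65, SE 0.07, adjusted p = 5.51e-11, edgeR) and rose 85.4-fold on day 20 against day 15 (log2 6.42, SE 0.05, adjusted p = 4.18e-51). It then fell 2.39-fold on day 25 against day 20 (log2 -1.26, SE 0.04, adjusted p = 4.23e-30) and was still 22.8-fold higher on day 25 than on day 10 (log2 4.51, SE 0.05, adjusted p = 1.74e-47). Per kilobase, the day 20 level of 98.6 CPM was above 98.9% of tested genes, against 1.16 CPM and 37.8% on day 15.

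Among the relatives and partners of PODXL, 9 of 11 tested genes rose and 2 fell on day 20 against day 15, and 3 rose and 6 fell on day 25 against day 20. EZR (ezrin), which links podocalyxin to the actin cortex, averaged 33.0 ± 2.46, 41.7 ± 3.12, 301 ± 2.54 and 175 ± 1.03 CPM over the 4 days (SD, n = 3), a rise of 7.22-fold on day 20 against day 15. The relative CD34, a marker of blood progenitors and endothelium, went the other way with 20.6, 5.47, 1.31 and 1.10 CPM. The other gene that fell on day 20 was MSN (moesin), with 1159, 1711, 773 and 879 CPM over the 4 days. It was 2.21-fold lower on day 20 than on day 15, and RDX (radixin) rose 1.18-fold at that step. MSN and RDX were named after their values were seen. NPHS1 (nephrin) of the podocyte slit diaphragm had 0 counts on day 10 and then averaged 2.43, 4.95 and 2.14 CPM. WT1, a factor of podocytes and mesothelium, averaged 1.88, 4.57, 9.92 and 7.38 CPM.

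Many markers of cell types also changed on day 20, when PODXL rose. All 8 epithelial genes rose against day 15, and their summed level ran from 1194 to 1259 CPM on day 20, against 164 to 173 CPM on day 15. CDH1 (E-cadherin) averaged 164 CPM on day 20, against 0.416 on day 15. Of 8 stromal genes 6 rose and 1 fell, with a sum of 6856 to 6971 CPM on day 20, against 1503 to 1569 CPM on day 15, and of 8 endoderm and yolk sac genes 6 rose and 1 fell, with a sum of 665 to 683 CPM, against 81.8 to 85.5 CPM. DCN (decorin) was 381 CPM on day 20, against 26.9 on day 15, and AFP (alpha-fetoprotein) 419 CPM, against 53.5. The 10 endothelial genes, whose cells also carry podocalyxin, summed to 448 to 451 CPM on day 20, against 3608 to 3685 on day 15, and 9 of the 10 fell. The endothelial sum was 1547 to 1600 CPM on day 10, but its rise on day 15 was not that of most of the list. On day 15 against day 10, 7 of the 10 endothelial genes fell and 3 rose. Those 3, PECAM1, KDR and ESAM, were named after their values were seen. The 10 megakaryocyte and platelet genes all fell on day 20, to a sum of 512 to 530 CPM, against 30390 to 31150. Of 8 haematopoietic genes 7 rose and 1 fell on day 20 against day 15, with a sum of 3593 to 3701 CPM on day 20, against 1973 to 1993 CPM on day 15; on day 25, when PODXL fell, 6 rose and 2 fell against day 20 (4 rose and 3 fell with library size alone), to a sum of 5148 to 5282 CPM. Of 7 tested T cell genes 4 rose and 2 fell on day 20 against day 15, with a sum of 42.3 to 46.5 CPM, against 29.1 to 31.4 CPM. The part of any of these cell types in the PODXL values was not tested.

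**Figure D4:**
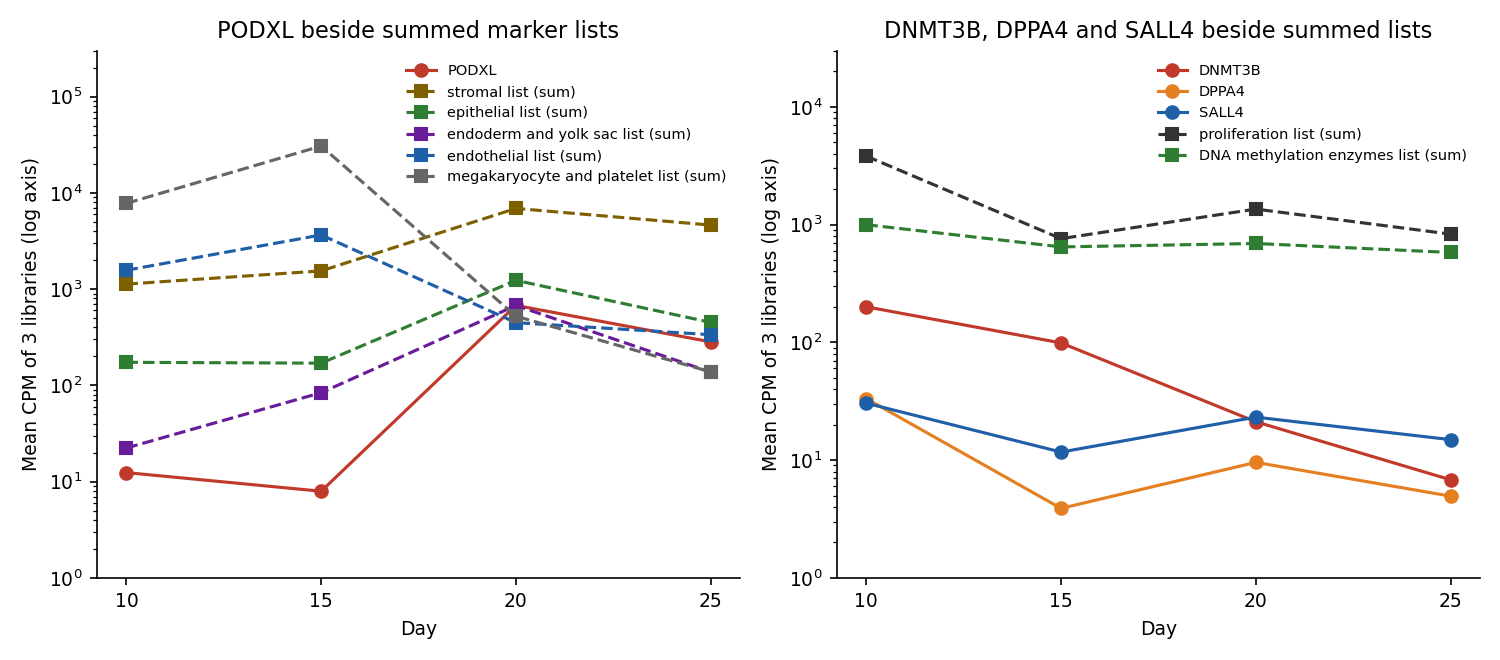
Mean CPM of 3 libraries on a log axis by day, with PODXL beside the summed levels of 5 marker lists on the left and DNMT3B, DPPA4 and SALL4 beside 2 summed lists on the right. The endothelial sum rises on day 15 although 7 of its 10 genes fall from day 10. PODXL reaches 678 CPM on day 20 with the stromal, epithelial and endoderm sums, while the endothelial and megakaryocyte sums are down; DPPA4 and SALL4 dip on day 15 as the proliferation sum does, and DNMT3B keeps descending.

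Other genes of the embryonic stem cell state also moved in both directions. Of 24 with an ID, 15 were tested: 5 rose and 8 fell on day 15 against day 10, 7 rose and 1 fell on day 20 against day 15, and 3 rose and 6 fell on day 25 against day 20. LIN28A, which blocks let-7 microRNAs, fell at each step as DNMT3B did, with 299, 30.1, 5.07 and 2.59 CPM. KLF4, a reprogramming factor that myeloid and epithelial cells also make, averaged 0.888, 21.6, 34.5 and 18.7 CPM, and TFCP2L1 0.161, 1.65, 4.59 and 9.02 CPM. SFRP2, a secreted Wnt modulator, averaged 1.24, 0.576, 12.0 and 17.5 CPM. ZFP42 (REX1), named after its values were seen, averaged 1.74, 0.351, 11.6 and 1.93 CPM and thus peaked on day 20 with PODXL. Germ cells also express several of the members: of 5 tested germ cell genes, 4 rose on day 15 against day 10 and 1 did not pass the test, with NANOS3 at 0.161, 3.67, 0.613 and 0.304 CPM and TDRD9 at 0.343, 1.16, 0.555 and 14.6 CPM. The summed level of the 8 germ cell genes stayed between 1.24 and 16.7 CPM in all libraries.

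For each tested member, the genes with the most similar profile were sought among 11682 genes, as Pearson r of log2 CPM over the 12 libraries. DPPA4 was matched most closely by INTS7 (r = 0.997) and ARHGAP11A (0.996), SALL4 by NSA2 (0.991) and NPM3 (0.987), and DNMT3B by TESC and F2RL2 (0.994 each). PODXL was matched by COL5A2, a fibrillar collagen gene, and PTGIS, prostacyclin synthase (0.998 each), and PTGIS averaged 2.93, 1.97, 153 and 79.7 CPM over the 4 days. Members with few counts had looser matches: SOX2 with PCGF1 (0.972) and PINK1 (0.969), L1TD1 with DVL3 (0.974) and ROR1 (0.973), TDGF1 with CHD6 and ABO (0.965 each), and POU5F1 with RSKR (0.934). With 4 days and 3 libraries to each, genes with a similar pattern over days score high, and these values carry no test. Nor do they measure the size of a change. On day 20 against day 15 PODXL rose 85.4-fold, PTGIS 77.7-fold and COL5A2 4.14-fold. On day 25 against day 10 DNMT3B fell 29.01-fold, F2RL2 39.3-fold and TESC 2.67-fold.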

How the data were processed

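RNA was sequenced as single reads from libraries made by ligation-mediated sequencing (LM-Seq), per the labels' protocols. The deposited table holds raw counts of reads per gene for 12 libraries. It was made on GRCh38, per the submitters' processing notes. No aligner, counter, annotation or strand setting is given in the sources used here. A gene name table gave symbols for 25301 of 36601 Ensembl IDs, and the IDs without one held 0.442% of counts and stayed in the test. Where IDs shared 1 of 19 symbols, the ID with the most counts kept it. Coordinates and lengths are from GENCODE release 29.

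Counts were fitted in R 4.3.3 with edgeR 4.0.16 (filterByExpr with a minimum count of 10, TMM factors from 0.753 to 1.172, robust glmQLFit over all 12 libraries without covariates, glmQLFTest). This left 20183 genes across which p-values were adjusted; the common dispersion corresponds to a coefficient of variation of 6.03%. Counts of 2 were more frequent than counts of 1 in all 12 libraries, and single counts may therefore not be separate fragments. Replicates of a day differed beyond the sampling noise of separate fragments (chi-square per gene from 3.50 to 5.17), and none was merged. The steps were tested on simulated counts.

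The members and the 17 gene lists were chosen with earlier results of these data known. The genes named come from the up to 4 per list with the largest change between days 25 and 10 among genes of at least 1 CPM on their highest day, plus all copies of members and the 2 genes most like each member (at least 5 CPM, prior count of 2). Of these like genes, 1 is not reported here. Any other gene is marked as named after its values were seen. Alternatives were DESeq2 size factors, library size alone, no filter, a stricter filter, DESeq2 1.42.0, limma-voom (limma 3.58.1), a replicate block, fits to the compared days alone, leaving out mitochondrial, ribosomal protein and haemoglobin genes, an adjusted p under 0.01, and each library left out in turn. Tables were made with pandas 2.3.3 and numpy 2.4.6 under Python 3.11.15, and figures with matplotlib 3.10.9.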

Additional observations from a re-analysis of the deposited data

How the results depend on the processing

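Over 22 alternative settings, counts of members and of genes called kept within 1.5 times of the values reported, with 1 exception: genes lower at day 20 against day 15 numbered 4530 with library size alone, instead of 7271. Of single member values, 1016 kept direction and call, 12 lost a call, 3 gained one and 14 changed sign, all of them uncalled. The cause was not tested. Values of a member that the filter of a setting removed are not in these numbers, among them those of POU5F1 with the stricter filter. L1TD1 at day 15 against day 10 became -0.37 with library size alone and -0.05 with no filter or without the first library of day 10. L1TD1 at day 25 against day 20 became -0.04 with library size alone, -0.02 without the third library of day 20 and -0.05 without the second of day 25. SOX2 at day 25 against day 15 became 0.35 with library size alone, 0.10 with no filter, 0.16 without the third library of day 15 and 0.07 without the first of day 25. POU5F1 at day 25 against day 15 became -0.21 with limma-voom, -0.02 without the third library of day 15 and -0.28 without the third of day 25, and at day 25 against day 20 it became 0.18 without the first library of day 20. Over all left-out libraries these 5 values ran from -0.05 to 0.40, from -0.05 to 0.24, from -0.35 to 0.16, from -0.28 to 0.71 and from -1.39 to 0.18, in the order given. POU5F1 at day 20 against day 15 passed the threshold with library size alone (log2 1.71, adjusted p = 0.0371, edgeR).

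Replicate numbers did not pair the libraries: over 18 same-numbered pairs, deviations from the day means correlated between -0.016 and 0.016, 0 of them over 0.1, and 4 of 12 libraries correlated best with their own number. With a replicate block, 8439 genes were higher and 6153 lower at day 15 against day 10, and no member call changed. Depth limits POU5F1, NANOG, SOX2, L1TD1 and TDGF1, whose libraries hold from 0 to 81 counts.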
